A study of Mus musculus with 4 samples.

Results

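Inflammasome and gasdermin genes were examined in dorsal skin treated with imiquimod (IMQ) cream, an agonist of Toll-like receptor 7 that induces psoriasis-like dermatitis in mice. The 10 genes were taken by symbol as the sensors *Nlrp3*, *Nlrp10* and *Aim2*, the adaptor *Pycard*, the caspases *Casp1* and *Casp4*, the pore-forming gasdermins *Gsdmd*, *Gsdma* and *Gsdmc*, and the cytokine *Il18*. All 10 were found among the 24346 gene symbols of the files, and all 10 passed the filter on low values. The mice were male wild-type C57BL/6 animals, 8 weeks old at the start of a diet rich in fat, cholesterol and sucrose with added bile salt that induces steatohepatitis (NASH diet), and carried no engineered allele. The Cont-IMQ group received the NASH diet for 3 weeks and the 7KC-IMQ group the same diet with 7-ketocholesterol (7KC), an oxidized derivative of cholesterol, and both then received IMQ cream on the back for 1 day. Each group had 2 libraries, and skin without IMQ was not analysed here, so every difference is one between diets in treated skin. Nothing in the labels says whether a library came from 1 mouse or from several, and p-values measure only the spread between these libraries.

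An inflammasome is a cytosolic complex in which a sensor recruits caspase-1 through the adaptor ASC, the product of *Pycard*. Caspase-1 cleaves pro-IL-1β and pro-IL-18 into their active forms and releases the pore-forming part of gasdermin D, and caspase-11, the product of mouse *Casp4*, cleaves gasdermin D in response to intracellular lipopolysaccharide. In skin, keratinocytes store pro-IL-18 and express gasdermin A and NLRP10, whereas NLRP3 is best known from myeloid cells, in which its transcription is induced by NF-κB. Transcript levels do not show cleavage, and none was measured here.

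Promoter sequences are shown for *Nlrp3* and *Casp4*, which were higher in both 7KC-IMQ libraries, and for *Il18*, which was lower in both. The RefSeq table (GRCm38.p6, the assembly of mm10) held windows for 6 of the 10 genes, *Nlrp3*, *Aim2*, *Pycard*, *Casp1*, *Casp4* and *Il18*. The 250 bases upstream of a start site are given 5′ to 3′ on the strand of the gene, which is the plus strand for these 3 genes. Capitals mark matches to the NF-κB consensus in *Nlrp3* and *Casp4* and to TATAAA in *Il18*.
Nlrp3, chr11:59541319-59541568: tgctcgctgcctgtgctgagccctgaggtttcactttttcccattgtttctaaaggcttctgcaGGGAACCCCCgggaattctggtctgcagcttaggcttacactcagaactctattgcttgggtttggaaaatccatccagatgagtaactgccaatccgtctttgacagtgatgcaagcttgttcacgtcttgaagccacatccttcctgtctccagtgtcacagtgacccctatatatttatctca
Casp4, chr9:5308599-5308848: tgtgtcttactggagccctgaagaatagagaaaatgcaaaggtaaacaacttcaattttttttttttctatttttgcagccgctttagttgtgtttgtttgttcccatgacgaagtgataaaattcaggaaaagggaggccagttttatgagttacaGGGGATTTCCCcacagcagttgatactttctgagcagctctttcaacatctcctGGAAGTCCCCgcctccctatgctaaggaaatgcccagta
Il18, chr9:50554450-50554699: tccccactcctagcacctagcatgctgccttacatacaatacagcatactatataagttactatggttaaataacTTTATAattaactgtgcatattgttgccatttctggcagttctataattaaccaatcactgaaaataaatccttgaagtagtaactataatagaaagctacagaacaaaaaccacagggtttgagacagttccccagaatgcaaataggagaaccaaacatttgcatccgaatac
The *Nlrp3* match begins 186 bases before the start site. *Nlrp3* has 2 windows in the table, and the other one, before a start at 59542686, had no NF-κB match. In *Casp4*, whose 2 windows overlap and both hold the matches, a pair of overlapping matches begins 93 and 92 bases before the start and a further match lies on the opposite strand from 39 bases before it. The *Il18* match to TATAAA also lies on the opposite strand. NF-κB matches on either strand occurred in 3 of the 8 windows of the 6 genes, against 7.3% of 32841 upstream windows of the same length, and in 2 of the 6 genes, against 8.2% of 27018 genes. TATAAA occurred in 1 of the 6 genes, against 14.3% of genes. TGANTCA (AP-1), the core of the interferon-stimulated response element (GAAA and GAAA with 2 bases of any kind between them) and TTCNNNGAA (the STAT-binding GAS element) had 0 matches in the 8 windows of the 6 genes, against 6.8%, 3.0% and 7.0% of all windows. These are matches of letters only, and factor binding was not measured.

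The values were FPKM, read numbers scaled to exon length and to library size, as deposited. Depth was estimated at 14980000 to 16290000 reads per library from the steps of 1 read in low values. Skin markers were high, with the 7 basal keratinocyte markers summing to between 7254 and 8884 FPKM, whereas 5 liver markers summed to between 3.10 and 7.73 FPKM. The hair follicle markers (10 genes) summed to 1275 FPKM in Cont-IMQ replicate 2, the highest, and 92.6 FPKM in Cont-IMQ replicate 1, the lowest. The 7KC-IMQ libraries lay between them, at 356 and 313 FPKM in replicates 1 and 2. Values are given for replicates 1 and 2 of Cont-IMQ and then, after "against", for replicates 1 and 2 of 7KC-IMQ. In whole skin, fewer cells of a type and less RNA per cell cannot be told apart.

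*Gsdma* had the highest level of the 10 genes in every library and *Nlrp3* the lowest. Gasdermin A, a pore-forming protein of epithelia, had 81.0 to 137 FPKM, above the range of *Pycard* (58.0 to 76.4 FPKM). *Pycard* and *Il18* (42.5 to 76.8 FPKM) overlapped, and so did *Gsdmc* (12.2 to 41.6 FPKM), *Nlrp10* (21.5 to 30.7 FPKM) and *Casp1* (21.1 to 25.4 FPKM), each with its neighbor. *Casp4* (15.4 to 18.1 FPKM), *Gsdmd* (11.8 to 12.9 FPKM), *Aim2* (1.95 to 3.00 FPKM) and *Nlrp3* (0.343 to 0.984 FPKM) followed without overlap between neighbors. The sensors *Aim2* and *Nlrp3* were thus the lowest of the 10 genes, and the third sensor, *Nlrp10*, was at the level of *Casp1*.

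**Figure D1:**
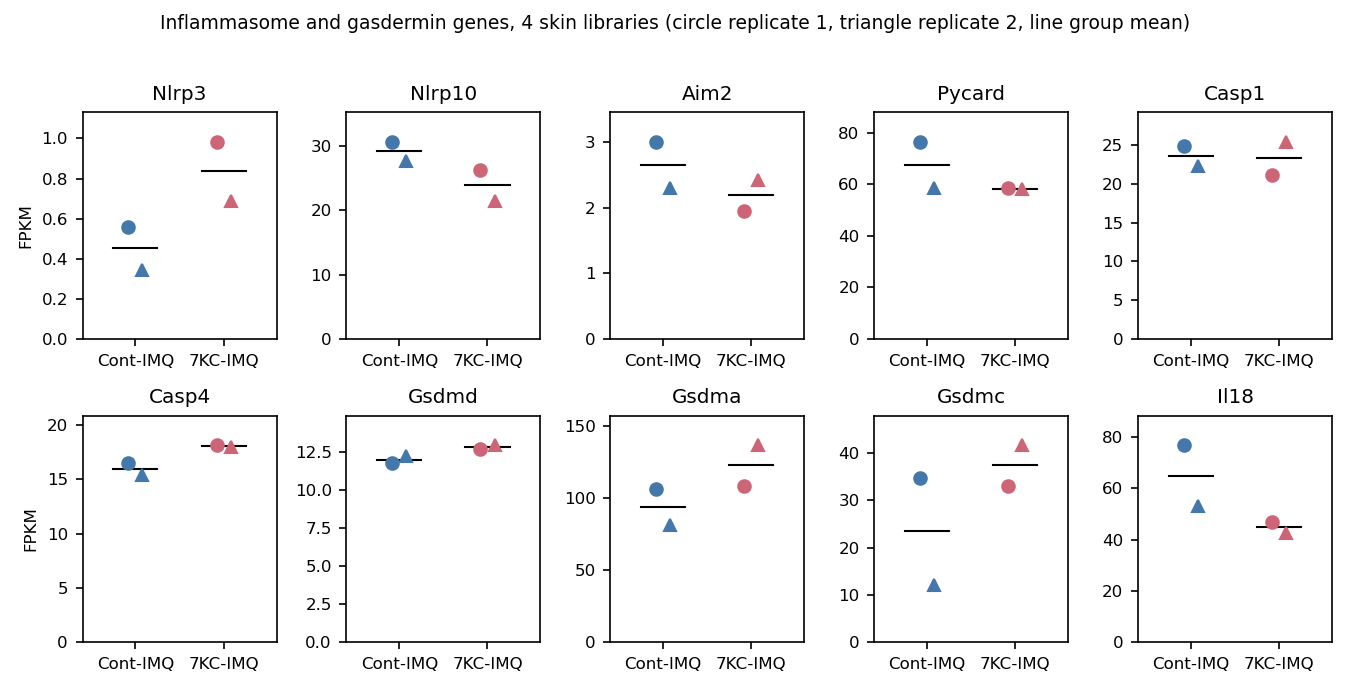
FPKM of the 10 genes in each library, by group, with replicate 1 as a circle, replicate 2 as a triangle and the group mean as a line (each axis starts at 0). *Nlrp3*, *Casp4*, *Gsdmd* and *Gsdma* are higher in both 7KC-IMQ libraries, *Nlrp10* and *Il18* are lower in both, and the other 4 genes overlap.

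The 7KC diet was compared with the NASH diet on the log2(FPKM + 1) scale by limma in the 15896 genes with a mean of at least 0.1 FPKM. Fold changes on this scale understate the change of low genes. None of the 10 genes reached an adjusted p of 0.05, with adjusted p-values between 0.381 (*Il18*) and 0.957 (*Casp1*), and 0.00629% of all genes tested reached it. At an unadjusted p under 0.05, 1 of the 10 genes was called in limma, *Il18*, against 13.0% of all genes tested. Of the 10 genes, 4 were higher and 2 lower with 7KC without overlap between the groups, or 60%, against 23.9% of all genes higher and 22.9% lower, together 46.8%. The median difference of the 10 genes was 0.03 and that of all genes tested -0.01. In mean, 5 of the 10 genes were higher and 5 lower, and 48.7% of all genes tested were higher. With 2 libraries a group, the smallest two-sided p of an exact permutation test is 0.333. Which genes had an unadjusted p under 0.05 in limma changed with the libraries used, and *Il18* kept it in 1 of the 4 fits that left out a library. The genes were *Gsdma* and *Gsdmc* without Cont-IMQ replicate 1 (14.7% of all genes), *Pycard* and *Il18* without Cont-IMQ replicate 2 (14.1%), *Nlrp10* without 7KC-IMQ replicate 1 (7.18%) and none without 7KC-IMQ replicate 2 (3.89%). With 1 library against 2, groups overlap less often by construction. Without overlap, 5 genes were then higher and 2 lower without Cont-IMQ replicate 1 (38.6% and 39.1% of all genes), and 4 and 4 without Cont-IMQ replicate 2 (38.9% and 38.6%). The numbers were 6 higher and 3 lower without 7KC-IMQ replicate 1 (35.8% and 35.2%), and 4 and 4 without 7KC-IMQ replicate 2 (33.2% and 33.5%).

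**Figure D2:**
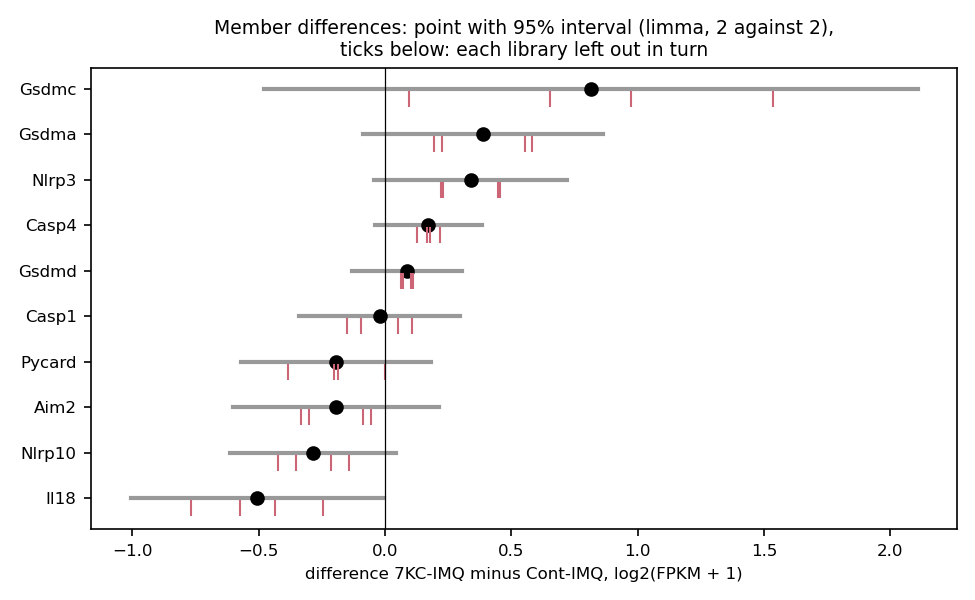
Difference between 7KC-IMQ and Cont-IMQ in log2(FPKM + 1) for each of the 10 genes, with points for the estimate from all 4 libraries, grey lines for its 95% interval in limma and red ticks for the 4 estimates that leave out 1 library. The points run from -0.51 for *Il18* to 0.81 for *Gsdmc*, and the interval of every gene other than *Il18* includes 0.

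Of the sensors, *Nlrp3* (ENSMUSG00000032691.14, chromosome 11 of GRCm38 from 59541568 to 59566956, plus strand) encodes the sensor that responds to crystals, ATP and potassium efflux. In Cont-IMQ skin *Nlrp3* was at 0.560 FPKM (replicate 1) and 0.343 FPKM (replicate 2), against 0.984 and 0.689 FPKM in 7KC-IMQ skin in the same order. Both 7KC-IMQ libraries were above both Cont-IMQ libraries, and the mean was 1.85 times that of the Cont-IMQ group (0.836 ± 0.209 against 0.452 ± 0.154 FPKM, SD, n = 2). The estimated reads behind these levels were 33 and 20, against 61 and 39. The exact Poisson 95% interval was 22.7 to 46.3 reads in Cont-IMQ replicate 1 and 27.7 to 53.3 reads in 7KC-IMQ replicate 2, and the intervals of these nearest libraries overlapped. The log2 fold change was 0.34 (its standard error was 0.14, 95% interval -0.04 to 0.72, limma adjusted p = 0.422), and 5.81% of all genes tested had a positive difference of at least this size. It was 0.77 with a pseudocount of 0.1, and ranged from 0.22 without 7KC-IMQ replicate 1 to 0.45 without 7KC-IMQ replicate 2.

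*Nlrp10* (ENSMUSG00000049709.4, chromosome 7 from 108921852 to 108930178, minus strand) encodes an NLR protein without leucine-rich repeats that is found in differentiating keratinocytes. *Nlrp10* had 30.7 and 27.7 FPKM with the NASH diet and 26.3 and 21.5 FPKM with 7KC. The groups did not overlap, and the mean of the 7KC-IMQ group was 0.818 times that of the Cont-IMQ group (log2 fold change -0.28 with a standard error of 0.12, limma adjusted p = 0.434). Its fold change was -0.14 without 7KC-IMQ replicate 2 and -0.42 without 7KC-IMQ replicate 1. *Aim2* (ENSMUSG00000037860.15, chromosome 1 from 173350879 to 173466040), which encodes a sensor of cytosolic DNA, had 3.00 and 2.30 FPKM against 1.95 and 2.43 FPKM. The *Aim2* groups overlapped, and the 95% interval of the difference was -0.60 to 0.21 (limma adjusted p = 0.632).

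Of 17 other sensors listed, 15 passed the filter, and 3 were higher and 5 lower without overlap. The shares of all genes tested were 23.9% higher and 22.9% lower. The 3 higher sensors were *Nlrp1a*, *Nod2* and *Ifi204*, and the 5 lower ones were *Nlrc4*, *Naip2*, *Naip6*, *Mefv* and *Nod1*. At an unadjusted p under 0.05 there were 2 higher sensors, *Nod2* and *Ifi204*, and 0 lower ones in limma. Of all genes tested, 7.50% were higher and 5.47% lower at that p. None of the sensors passed adjustment. *Nod2*, which encodes a sensor of bacterial muramyl dipeptide, had 12.6 and 12.4 FPKM against 14.3 and 17.4 FPKM (log2 fold change 0.31, limma adjusted p = 0.382). *Ifi204*, an interferon-inducible relative of *Aim2*, had 34.0 and 37.3 FPKM against 41.2 and 42.9 FPKM. NLRC4 assembles an inflammasome with NAIP proteins that bind bacterial flagellin and secretion-system proteins. *Nlrc4* had 0.499 and 0.450 FPKM against 0.283 and 0.253 FPKM (log2 fold change -0.22, limma adjusted p = 0.444). *Naip2* had 1.66 and 1.56 FPKM against 1.41 and 1.18 FPKM, and *Naip6* had 0.303 and 0.473 FPKM against 0.195 and 0.240 FPKM. Of the 75-base windows of *Naip2* and *Naip6*, 10.7% and 12.0% also occur in another gene, mostly other *Naip* genes, so their reads can be exchanged. The macrophage and monocyte markers (11 genes), from cells that express *Nlrc4* and *Nlrp3*, summed to 845.9 and 1023 FPKM with the NASH diet and to 807.7 and 845.3 FPKM in the 7KC-IMQ libraries. Of these markers, 1 was higher and 3 lower without overlap, against 23.9% and 22.9% of all genes tested. None of the markers was at 0 in any library, and their part in the sensor values was not tested.

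*Pycard* (ENSMUSG00000030793.4, chromosome 7 from 127989708 to 127993867, minus strand) encodes the adaptor ASC, which links sensors to caspase-1. *Pycard* had 76.4 and 58.3 FPKM with the NASH diet and 58.6 and 58.0 FPKM with 7KC. Cont-IMQ replicate 1 was the highest library, and the other 3 lay within 1 FPKM of each other. The log2 fold change was -0.19 (its standard error was 0.14, limma adjusted p = 0.609) and -7e-04 without Cont-IMQ replicate 1. An annotated gene on the opposite strand, *Gm45205*, covers 10.9% of the 75-base windows of *Pycard*, and how strand was used in counting is not given in the sources used here.

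The inflammatory caspases lie next to each other on chromosome 9, *Casp1* (ENSMUSG00000025888.5) from 5298517 to 5307265 and *Casp4* (ENSMUSG00000033538.13) from 5308828 to 5336783. *Casp1* had 24.8 and 22.3 FPKM against 21.1 and 25.4 FPKM. The *Casp1* groups overlapped, with a log2 fold change of -0.02 and a 95% interval of -0.34 to 0.30 (limma adjusted p = 0.957), and its sign turned in 2 of the 4 fits with a library left out, to 0.05 without Cont-IMQ replicate 1 and 0.11 without 7KC-IMQ replicate 1. *Casp4* had 16.5 and 15.4 FPKM against 18.1 and 18.0 FPKM. Both 7KC-IMQ libraries were above both Cont-IMQ libraries, and the log2 fold change was 0.17 (its standard error was 0.08, 95% interval -0.04 to 0.38, limma adjusted p = 0.455). Leaving out any 1 library moved it to between 0.13 and 0.22, so *Casp4* was among the genes that depended least on 1 library. The ratio of *Casp4* to *Casp1* FPKM within a library, chosen after the values were seen, was 0.663 and 0.690 in the Cont-IMQ group and 0.859 and 0.707 in the 7KC-IMQ group.

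Of 8 other caspases and kinases of cell death, 3 were higher and 2 lower without overlap, and 3 overlapped. The 3 higher genes had an unadjusted p under 0.05 in limma. Of all genes tested, 23.9% were higher and 22.9% lower without overlap, and 7.50% were higher at that p. *Ripk3*, the kinase that starts necroptosis, had 8.29 and 9.01 FPKM with the NASH diet and 13.7 and 13.5 FPKM with 7KC (log2 fold change 0.60 with a standard error of 0.09, limma adjusted p = 0.352). *Mlkl*, whose product permeabilizes the membrane after phosphorylation by RIPK3, had 10.9 and 8.03 FPKM against 12.7 and 13.2 FPKM (log2 fold change 0.42, limma adjusted p = 0.380). *Casp8* (18.3 and 19.1 against 19.0 and 18.5 FPKM) and *Ripk1* (12.8 and 12.6 against 13.1 and 12.4 FPKM) overlapped. *Nek7*, which encodes a binding partner of NLRP3, had 39.6 and 36.2 FPKM against 34.1 and 32.5 FPKM and was lower without overlap.

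Gasdermins form pores in the plasma membrane after cleavage. *Gsdmd* (ENSMUSG00000022575.5, chromosome 15 from 75862327 to 75867408, plus strand), whose product is the shared substrate of caspase-1 and caspase-11, had 11.8 and 12.2 FPKM with the NASH diet and 12.6 and 12.9 FPKM with 7KC. The groups did not overlap, but the log2 fold change was 0.09 (its standard error was 0.08, 95% interval -0.13 to 0.30, limma adjusted p = 0.689) and 31.0% of all genes tested had a positive difference of at least this size. *Gsdma* (ENSMUSG00000017204.4, chromosome 11 from 98664351 to 98677708, plus strand) had 106 and 81.0 FPKM against 109 and 137 FPKM. The nearest *Gsdma* libraries, Cont-IMQ replicate 1 and 7KC-IMQ replicate 1, were close to each other. The log2 fold change of *Gsdma* was 0.39 (its standard error was 0.18, limma adjusted p = 0.448), and it was 0.19 without Cont-IMQ replicate 2 and 0.58 without Cont-IMQ replicate 1. After quantile normalization the *Gsdma* groups overlapped. The lowest *Gsdma* level was in Cont-IMQ replicate 2, the library with the highest hair follicle markers. That library also had the lowest sums of the basal (7254 FPKM) and differentiated (9712 FPKM) keratinocyte markers. The part of these cell types in the *Gsdma* values was not tested.

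*Gsdmc* (ENSMUSG00000079025.9, chromosome 15 from 63775968 to 63808759, minus strand) had the largest difference of the 10 genes and the largest standard error on the log2 scale. Its product belongs to the gasdermin family of pore-forming proteins. In Cont-IMQ skin it was at 34.7 FPKM (replicate 1) and 12.2 FPKM (replicate 2), against 33.1 and 41.6 FPKM in 7KC-IMQ skin. Cont-IMQ replicate 2 was low, and the other Cont-IMQ library lay between the 7KC-IMQ libraries. The log2 fold change was 0.81 (its standard error was 0.49, 95% interval -0.48 to 2.11, limma adjusted p = 0.540), 0.10 without Cont-IMQ replicate 2 and 1.53 without Cont-IMQ replicate 1. Hair follicle markers, all 10 of them above 0 in every library, were highest in Cont-IMQ replicate 2 and lowest in Cont-IMQ replicate 1. The sums of the basal and of the differentiated keratinocyte markers were also lowest in Cont-IMQ replicate 2. The part of these cell types in the *Gsdmc* values was not tested.

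The neighbors of *Gsdmc* followed a like arrangement. *Gsdmc2* (chromosome 15 from 63824346 to 63845177) had 6.83 and 2.02 FPKM against 10.7 and 8.82 FPKM, a log2 fold change of 1.14 (its standard error was 0.47, limma adjusted p = 0.411). *Gsdmc3* (chromosome 15 from 63857724 to 63878558) had 0.302 and 0.169 FPKM against 0.658 and 0.340 FPKM. Both were higher in the 7KC-IMQ libraries without overlap, and both were lowest in Cont-IMQ replicate 2. The *Gsdmc3* values rest on an estimated 9 and 5 reads against 21 and 10, so its nearest libraries differ by 1 read. *Gsdmc4* was at or under 0.0346 FPKM, and *Gsdmcl1*, *Gsdmcl2* and *Gsdmcl-ps* were listed at 0 in all 4 libraries. Of the 75-base windows of *Gsdmc*, 10.9% also occur in these neighbors, and the share was 39.3% for *Gsdmc2* and 35.8% for *Gsdmc3*, so the split of reads among them is uncertain. The sum over the *Gsdmc* cluster, which an exchange of reads within it would leave nearly as it is, was 41.9 and 14.4 FPKM against 44.5 and 50.8 FPKM.

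On chromosome 11, *Gsdma3* had 6.55 and 3.67 FPKM against 6.74 and 7.11 FPKM and *Gsdma2* had 1.07 and 0.495 FPKM against 0.458 and 1.13 FPKM. *Gsdma* shared 3.4% of its windows with them. *Dfna5*, the symbol used for gasdermin E, had 1.18 and 0.987 FPKM against 0.913 and 0.956 FPKM. Over all gasdermin genes, *Gsdma* contributed 63.0% and 71.9% of the summed FPKM in the Cont-IMQ libraries and 62.5% and 65.2% in the 7KC-IMQ libraries, *Gsdmc* 20.6% and 10.8% against 19.1% and 19.9%, and *Gsdmd* 6.96% and 10.8% against 7.28% and 6.17%. The gasdermin transcripts of this skin were thus mostly those of *Gsdma* on either diet. *Ninj1*, whose product ruptures the membrane after pore formation, had 26.5 and 34.8 FPKM against 28.6 and 30.0 FPKM and overlapped. Of 8 tested genes for other gasdermins and for membrane rupture or repair, 4 were higher and 1 lower without overlap. The shares of all genes tested were 23.9% and 22.9%. At an unadjusted p under 0.05 in limma there were 0 of these 8 genes, against 13.0% of all genes tested.

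**Figure D3:**
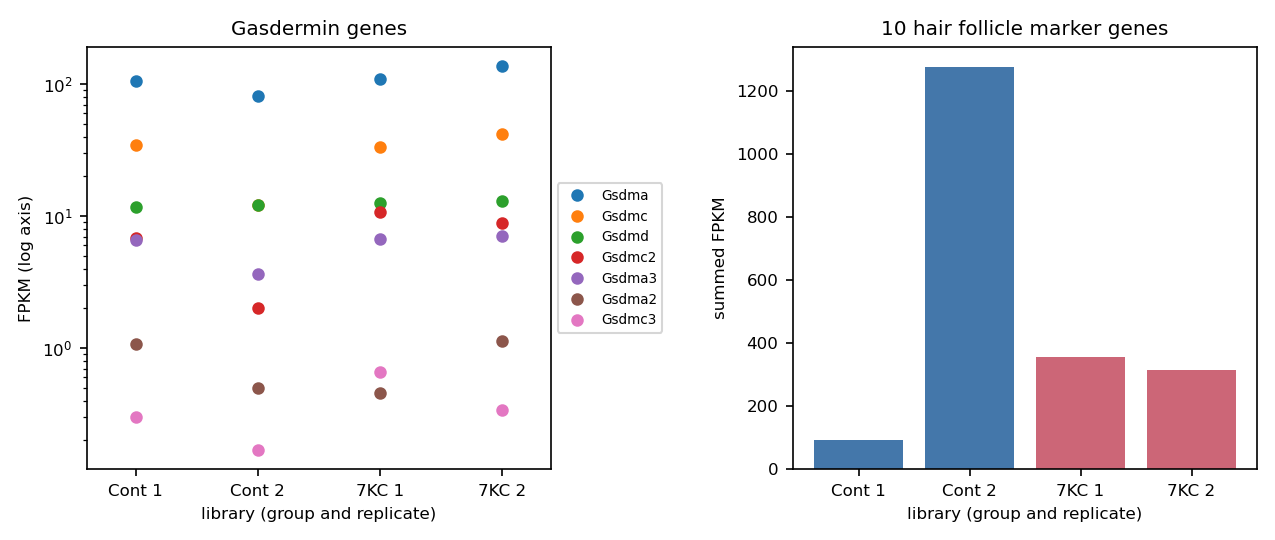
FPKM of 7 gasdermin genes in each library on a log axis (left) and the summed FPKM of 10 hair follicle marker genes in each library (right). *Gsdma*, *Gsdmc*, *Gsdmc2*, *Gsdmc3* and *Gsdma3* are lowest in Cont-IMQ replicate 2, whose hair follicle markers have the highest sum, 1275 FPKM. The lowest sum, 92.6 FPKM, is in Cont-IMQ replicate 1. The *Gsdmc* point of Cont-IMQ replicate 2 (12.2 FPKM) lies behind that of *Gsdmd*.

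*Il18* (ENSMUSG00000039217.13, chromosome 9 from 50554827 to 50581840, plus strand) encodes the cytokine precursor that caspase-1 cleaves. In Cont-IMQ skin *Il18* was at 76.8 FPKM (replicate 1) and 53.1 FPKM (replicate 2), against 46.9 and 42.5 FPKM in 7KC-IMQ skin. Both 7KC-IMQ libraries were below both Cont-IMQ libraries, and the mean was 0.689 times that of the Cont-IMQ group (44.7 ± 3.08 against 64.9 ± 16.7 FPKM, SD, n = 2). The log2 fold change was -0.51 (its standard error was 0.19, 95% interval -1.01 to -0.0045, limma adjusted p = 0.381), and 2.46% of all genes tested had a negative difference of at least this size. It ranged from -0.77 without Cont-IMQ replicate 2 to -0.24 without Cont-IMQ replicate 1, the library with the highest *Il18*. That library also had the highest summed FPKM of the differentiated keratinocyte markers, 16920 FPKM. The sum was 9712 FPKM in Cont-IMQ replicate 2 and 11300 and 12570 FPKM in the 7KC-IMQ libraries. Most of each sum was *Krt1* and *Krt10* (5867 and 8444 FPKM in Cont-IMQ replicate 1). Cont-IMQ replicate 2 had more *Il18* than either 7KC-IMQ library but the lowest sum. Of the 8 keratinocyte markers, 1 was higher and 2 lower without overlap, against 23.9% and 22.9% of all genes tested. None of the markers was at 0, and their part in the *Il18* values was not tested.

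The genes that receive or block IL-18 were higher in both 7KC-IMQ libraries. *Il18bp*, which encodes a secreted decoy that binds IL-18, had 13.7 and 13.4 FPKM against 15.6 and 16.2 FPKM (log2 fold change 0.22 with a standard error of 0.08, limma adjusted p = 0.374). *Il18r1*, the ligand-binding receptor chain, had 1.41 and 1.37 FPKM against 1.81 and 2.03 FPKM (log2 fold change 0.29, limma adjusted p = 0.381). *Il18rap*, the signaling chain, had 0.428 and 0.279 FPKM against 0.659 and 0.589 FPKM (log2 fold change 0.26, limma adjusted p = 0.426). The groups overlapped for none of these 3 genes, and 46.8% of all genes tested were also without overlap. Exons of *Il18bp* overlap those of *Numa1* on the opposite strand, with 0.2% of windows shared. The T and NK cell markers in the files (7 genes), from cells that carry the receptor, summed to 17.1 and 15.7 FPKM against 13.9 and 11.2 FPKM. Of the 5 tested, 2 were higher (*Ncr1* and *Il2rb*) and 2 lower (*Cd3e* and *Cd3g*) without overlap, against 23.9% and 22.9% of all genes tested. None of these markers was at 0, and their part in the receptor values was not tested.

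The IL-18 precursor and its decoy were set against each other as the ratio of *Il18* to *Il18bp* FPKM within a library, chosen after the values were seen. It was 5.62 and 3.96 in the Cont-IMQ libraries and 3.00 and 2.63 in the 7KC-IMQ libraries. The ratio of *Il18* to *Il1b*, the other cytokine precursor cleaved by caspase-1, was 6.92 and 3.23 against 1.89 and 1.90. Both ratios were lower in both 7KC-IMQ libraries. *Il1b* had 11.1 and 16.4 FPKM against 24.9 and 22.4 FPKM, so the caspase-1 substrates differed in opposite directions.

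**Figure D4:**
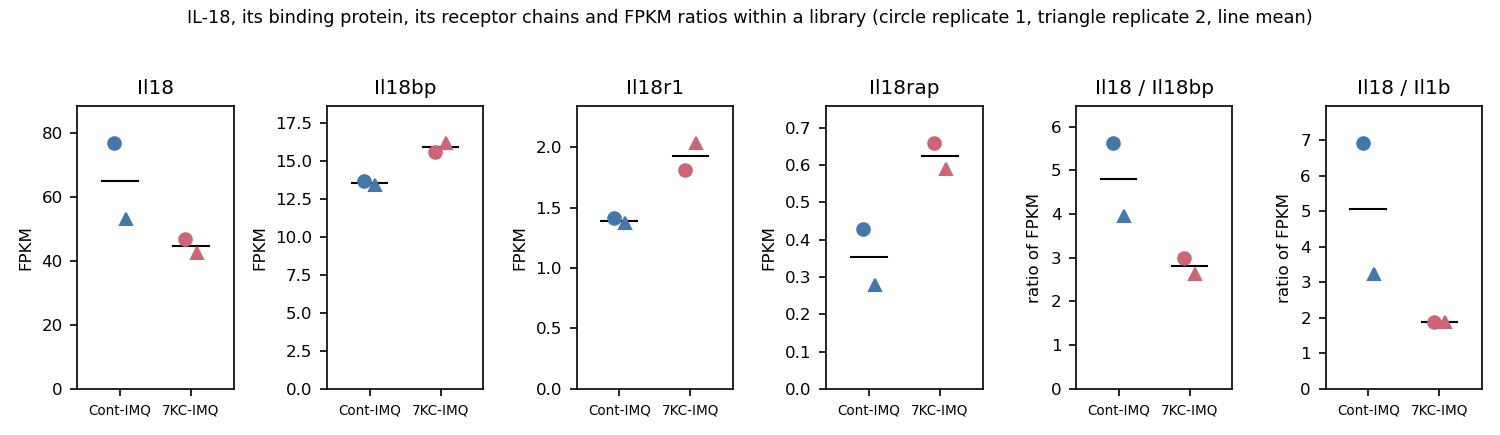
FPKM of *Il18*, *Il18bp*, *Il18r1* and *Il18rap*, and the ratios of *Il18* to *Il18bp* and to *Il1b* FPKM within each library, with replicate 1 as a circle, replicate 2 as a triangle and the group mean as a line (each axis starts at 0). *Il18* and both ratios are lower in both 7KC-IMQ libraries, and the binding protein and the receptor chains are higher in both.

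The 5 lists of other pathway genes were chosen with earlier results of these data known, so their shares are descriptive only. Of their 63 genes, 58 passed the filter. Of these, 25 were higher and 12 lower without overlap, or 63.8%, against 46.8% of all genes tested, and 14 were higher and 1 lower at an unadjusted p under 0.05 in limma, against 7.50% and 5.47% of all genes tested. None passed adjustment (smallest limma adjusted p = 0.352), and without 7KC-IMQ replicate 2 the number at an unadjusted p under 0.05 was 4 in place of 15, while the share of all genes was 3.89% in place of 13.0%. The median difference was 0.15 over these genes and -0.01 over all genes tested. By role, it was 0.01 in the sensors, 0.03 in the caspases and kinases, 0.07 in the gasdermins and membrane genes, 0.32 in the cytokines and receptors and 0.17 in the priming genes and regulators.

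The cytokines and receptors therefore had the highest median, with 9 of 10 genes higher without overlap and 1 lower, *Il1r2*. The shares of all genes tested were 23.9% higher and 22.9% lower. At an unadjusted p under 0.05 in limma, 7 were higher, against 7.50% of all genes tested. The largest of the 7 differences were in *Il1a* (50.6 and 33.9 against 62.7 and 94.1 FPKM, log2 fold change 0.88), *Il33* (40.1 and 32.3 against 52.3 and 81.8 FPKM, 0.84) and *Il1b* (log2 fold change 0.76), which encode members of the IL-1 family, with adjusted p-values of 0.365, 0.356 and 0.356 in limma. *Il1r1*, the signaling receptor of IL-1, had 13.5 FPKM in each Cont-IMQ library and 18.4 and 18.3 FPKM in the 7KC-IMQ libraries, and *Il1rn*, the receptor antagonist, had 77.6 and 66.7 FPKM against 85.9 and 99.7 FPKM. *Il1r2*, a decoy receptor, had 102 and 127 FPKM against 100.1 and 76.6 FPKM. Of the IL-1 family cytokines *Il1a*, *Il1b*, *Il18* and *Il33*, *Il18* was lower in both 7KC-IMQ libraries and the other 3 were higher in both. The neutrophil markers, from cells that express *Il1b* and *Nlrp3*, summed to 18.9 and 22.1 FPKM against 29.4 and 32.2 FPKM. Most of each sum was *Cxcr2* (13.39 and 15.05 against 20.16 and 23.03 FPKM). Of 9 neutrophil markers in the files, 5 of the 7 tested were higher without overlap, against 23.9% of all genes tested, and 2 overlapped. *Mpo*, *Elane*, *Ngp*, *Camp* and *Ltf*, which are granule genes, were listed at 0 in at least 1 library, and the part of these cells in the cytokine values was not tested.

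Of the 17 tested priming genes and regulators, 6 were higher and 3 lower without overlap, against 23.9% and 22.9% of all genes tested. *Myd88*, the adaptor of Toll-like and IL-1 receptors, had 53.9 and 49.8 FPKM against 70.4 and 67.8 FPKM (log2 fold change 0.41 with a standard error of 0.08, limma adjusted p = 0.352). *Serpinb1a*, an inhibitor of neutrophil serine proteases, had 15.2 and 15.0 FPKM against 19.1 and 26.7 FPKM (log2 fold change 0.55, limma adjusted p = 0.360). *Txnip*, which encodes thioredoxin-interacting protein, a binding partner of NLRP3, had 214 and 234 FPKM against 163 and 161 FPKM (log2 fold change -0.46 with a standard error of 0.08, limma adjusted p = 0.352). *Txnip* and *Nek7* were thus lower without overlap while *Nlrp3* itself was higher. *P2rx7*, the ATP-gated channel upstream of NLRP3, had 5.64 and 4.11 FPKM against 4.11 and 3.96 FPKM, with its nearest libraries almost level. *Gbp2* and *Gbp3*, interferon-induced GTPases that aid the detection of bacteria by caspase-11, overlapped (75.4 and 68.3 against 71.0 and 85.4 FPKM, and 27.3 and 18.9 against 22.5 and 25.3 FPKM).

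**Figure D5:**
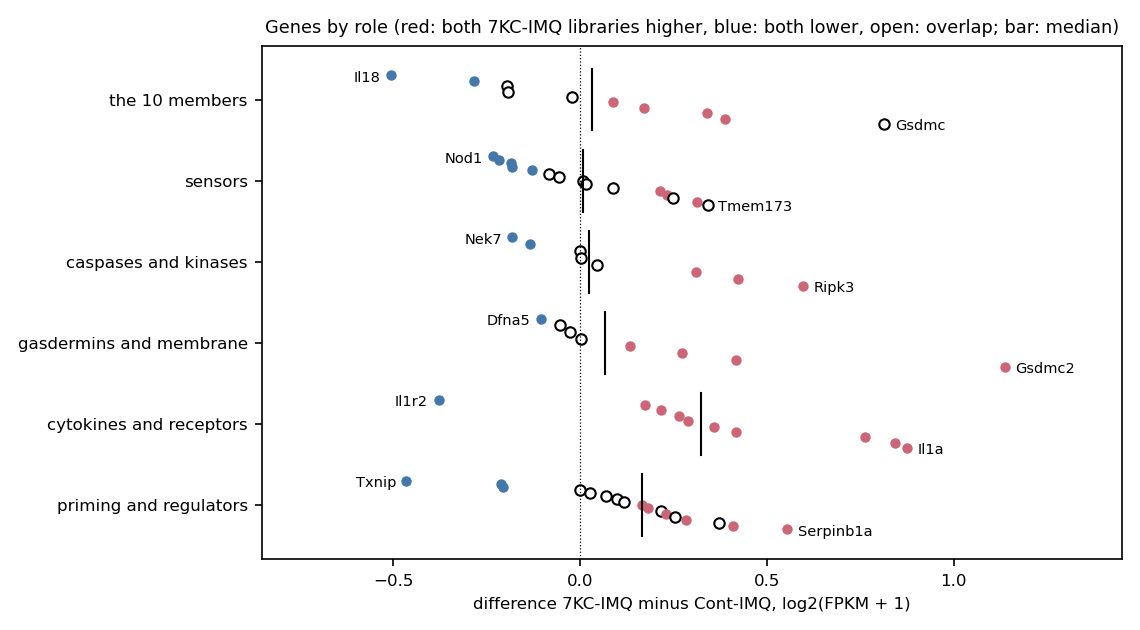
Difference between 7KC-IMQ and Cont-IMQ in log2(FPKM + 1) for the 10 genes and for the 58 other pathway genes tested, by role, with red for genes higher in both 7KC-IMQ libraries, blue for genes lower in both, open points for genes that overlap and bars for the median of each row. The cytokines and receptors have the highest median, 0.32, and *Il18* lies furthest to the left of all genes shown, at -0.51.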

How the data were processed

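RNA sequencing of dorsal skin was analysed in 4 libraries, grouped and numbered by the sample labels. The authors mapped 75-base single-end reads of stranded mRNA libraries to mm10 and deposited FPKM values per gene symbol. The submitters' processing notes name TopHat2 2.1.1, Bowtie2 2.2.8, SAMtools 0.1.18 and Cuffdiff 2.2.1, the methods other versions, and the handling of multi-mapped reads is not given in the sources used here.

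Values were taken as log2(FPKM + 1), filtered at a mean of 0.1 FPKM, and compared with limma 3.58.1 in R 4.3.3. The model was a moderated linear model with a variance trend and Benjamini-Hochberg adjustment over all genes tested. It was also run on simulated data with independent normal noise, which does not show its error rate in these data. Depth came from low values of genes with 1 transcript (fragment length 200 assumed), of which 71.4% to 74.0% were within 0.1 of whole reads, against 13.3% to 13.9% at the median depth tried. Estimated reads use the longest transcript and cover counting error only. Coordinates and shared 75-base windows came from GENCODE M21 (GRCm38).

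The 10 genes, the role lists and the marker lists were chosen with earlier results of these data known. Named pathway genes were those with an unadjusted p under 0.05 and no overlap, up to 5 per list, and all gasdermin relatives. The other pathway genes named in the text were chosen after their values were seen. The values of 1 pathway gene are not reported here. For 5 list genes another symbol was used, and 6 were not analysed here. Alternatives were another pseudocount, filter, scaling or variance model, a replicate block, and leaving out each library.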

Additional observations from a re-analysis of the deposited data

How the results depend on the processing

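No alternative brought any of the 10 genes or the other pathway genes past an adjusted p of 0.05. Of 109 fold changes of the 10 genes recomputed, 107 kept their sign, and the 2 that did not were of *Casp1*, at 0.05 without Cont-IMQ replicate 1 and 0.11 without 7KC-IMQ replicate 1, within a range of -0.15 to 0.11 with each library left out. The number of the 10 genes with an unadjusted p under 0.05 in limma was 0 without the variance trend, against 1910 of 15896 genes tested. It was 1 without a filter on low values, against 2328 of 24346 genes tested. The gene was then *Casp4* and not *Il18*. The number of the 10 genes lower without overlap was 2 to 4 with each library left out. The share of all genes tested lower without overlap was 33.5% to 39.1% in these fits, against 22.9% with all 4 libraries. The share of all genes tested with an unadjusted p under 0.05 also changed between these fits, as given above. The number of other pathway genes with an unadjusted p under 0.05 was 4 to 19 in the same fits, with 4 without 7KC-IMQ replicate 2. Adjusted p-values over the alternatives were 0.309 to 0.969 for *Il18* and 0.342 to 0.969 for *Nlrp3*. With a library left out, the lone library of a group was assumed to vary like the other group. The median ratio size factors lay between 1.001 and 1.002, so scaling by them left the values nearly as they were and was a weak alternative.

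With the replicate number as a replicate block, 3 of the 10 genes had an unadjusted p under 0.05 in limma, *Nlrp3*, *Nlrp10* and *Il18*. Among all genes tested in that fit, 1754 of 15896 had it. None of the 10 genes passed adjustment. The differences between replicates 1 and 2 of the groups correlated at 0.065 across genes, and nothing in the labels pairs the libraries. With 2 libraries a group, small differences cannot be shown, and a p that misses the threshold does not show that values were alike.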
